A study of Mus musculus with 16 samples.

Results

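Il7r (Entrez 16197) encodes the α chain of the interleukin-7 receptor, CD127. Its transcript was followed through RNA-seq of sorted CD4+ T cells from mice given venetoclax or vehicle. The gene was taken as the row of this symbol in the Treg table and in the Tcon table, which makes 1 gene of 11464. There were 11067 genes for Treg and 11171 for Tcon, and 10774 were measured in both. Il7r was selected on its measured counts, which were higher in Treg of venetoclax mice in these same libraries, so all of its own values are a description and carry no test.

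There were 4 groups of 4 libraries each, 16 in all. They were CD4+ FOXP3+ regulatory cells (Treg) of mice given 50 mg/kg of venetoclax, Treg of vehicle mice, CD4+ FOXP3- conventional cells (Tcon) of mice given the same dose of venetoclax, and Tcon of vehicle mice. Treatment lasted 14 days in all 4 groups, and the cells came from spleen and lymph node. All mice, vehicle mice included, were of the strain B6.Cg-Foxp3tm2Tch/J with the genotype WT. This strain carries the FOXP3-IRES-GFP reporter, in which GFP is read from the Foxp3 locus and marks the FOXP3+ cells. Venetoclax is a small molecule that blocks the survival protein BCL-2. The labels call the libraries biological replicates. The labels do not say how many mice went into a library, nor their age or sex. Treg and Tcon libraries share the codes ABT1 to ABT4 (venetoclax) and VEH1 to VEH4 (vehicle), whose numbers are the replicate numbers used below.

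The IL-7 receptor α chain pairs with the common γ chain, encoded by Il2rg, to bind interleukin-7, a survival cytokine made mainly by stromal cells. It also pairs with the chain encoded by Crlf2 to bind the related cytokine TSLP. Binding of IL-7 activates the kinases JAK1 and JAK3 and the transcription factor STAT5, which turns on survival genes such as Bcl2 and feedback inhibitors such as Cish. FOXO1 keeps Il7r transcribed in resting T cells, and cytokine and antigen signals lower it. Conventional T cells carry much CD127 on the surface and most Tregs carry little, a difference that is widely used to sort the subsets.

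Il7r lies on chromosome 15 from 9506159 to 9529941 (GRCm38.p6, the assembly of mm10), a span of 23783 bases on the minus strand that overlaps 0 other annotated genes. The region before its start is shown because several factors described below are known to act on this locus. Of the 250 bases before the start that RefSeq gives for GRCm38.p6 (chr15:9529877-9530126, minus strand), 65 lie inside the annotated gene span, and the other 185 bases precede it.
Il7r, before the gene span (chr15:9529942-9530126, minus strand): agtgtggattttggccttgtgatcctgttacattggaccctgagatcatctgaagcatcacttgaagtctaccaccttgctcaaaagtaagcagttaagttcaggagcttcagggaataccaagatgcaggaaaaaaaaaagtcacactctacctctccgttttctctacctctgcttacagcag
Il7r, around the ETS core (chr15:9529908-9529937, minus strand): ccttttgctcagACTTCCtgtttctggcac
Both are written 5′ to 3′ on the strand of the gene, and the capitals mark the only motif match found. The window was searched on both strands for the cores of 6 factor families. The ETS core GGAAGT, the family of GABP, matched 1 time, on the opposite strand, 49 to 44 bases before the start of this window's transcript, and 19.7% of 32851 promoter windows of the same length hold that core. This match lies within the 65 bases inside the annotated gene span, and the 185 bases before the span hold no match. The other 5 motifs had no match in this window. They were the RUNX core TGTGGT (held by 14.1% of windows), the forkhead core TGTTTAC of FOXO and FOXP factors (3.17%), the GFI1 core AAATCAC (2.76%), the glucocorticoid receptor half-site AGAACA (16.1%) and the NF-kB site (0.14%). These are matches of letters in 1 window and do not show where a factor binds.

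Reads assigned to genes ran from 21335006 to 25027038 per Treg library and from 22982210 to 24960570 per Tcon library. Values within a subset are normalized read counts, in which a size factor has been divided out of each library. Levels across the 2 tables are given as CPM (counts scaled to the same sum in all libraries), since each table was normalized on its own. Some libraries stood apart. Replicate 3 of both treatments was separated from the other Tcon libraries on the second principal component (scores of 19.0 for venetoclax and 21.8 for vehicle, against -15.2 to -1.05 for the others). Summed Y-linked counts were 1 or less in ABT4, VEH1, VEH3 and VEH4, between 1941 and 4274 in ABT1 and ABT3, and between 7593 and 8845 in ABT2 and VEH2. Results that rest on these libraries are given with and without them.

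The sort was visible in the markers. Foxp3, the factor that defines Tregs, averaged 21360 ± 141 normalized counts in venetoclax Treg and 19840 ± 1443 in vehicle Treg (SD, n = 4 each). It averaged 720.8 ± 24.1 in venetoclax Tcon and 688 ± 50.9 in vehicle Tcon (SD, n = 4 each). The summed level of 7 measured CD4 T cell identity genes ran from 3983 to 4263 CPM in venetoclax Treg, 3835 to 4080 CPM in vehicle Treg, 3710 to 4157 CPM in venetoclax Tcon and 3902 to 4173 CPM in vehicle Tcon, so the groups overlapped.

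Il7r had 13639, 15339, 10674 and 12073 normalized counts in venetoclax Treg, replicates 1 to 4. In vehicle Treg it had 5379, 6651, 6775 and 5629. Every venetoclax library was above every vehicle library, in 16 of 16 pairs, and the lowest venetoclax library was 1.58 times the highest vehicle library. The means were 12931 ± 2010.8 in venetoclax Treg and 6108 ± 707 in vehicle Treg (SD, n = 4 each), a ratio of 2.12 and a log2 difference of 1.08. That difference was 5.41 times the pooled SD of the replicates on the log2 scale, 0.199. The authors' deposited table gives a log2 fold change of 1.06 for Il7r in Treg. In RNA from bulk sorted cells, more cells that carry a transcript and more of it per cell cannot be told apart.

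In venetoclax Tcon, Il7r had 16515, 18939, 13735 and 17159 normalized counts. In vehicle Tcon it had 13570, 14818, 16600 and 13746. These groups overlapped: venetoclax was higher in 12 of 16 pairs, and replicate 3 was the lowest of the venetoclax libraries and the highest of the vehicle libraries. The means were 16587 ± 2160.2 in venetoclax Tcon and 14683 ± 1392 in vehicle Tcon (SD, n = 4 each), a ratio of 1.13. The log2 difference of 0.17 was 1.03 times the pooled SD of 0.166. Between same-numbered libraries, venetoclax over vehicle was 1.22, 1.28, 0.827 and 1.25 in replicates 1 to 4 of Tcon, and 2.54, 2.31, 1.58 and 2.14 in replicates 1 to 4 of Treg. Without replicate 3 of both treatments the log2 difference was 0.32 in Tcon and 1.22 in Treg. The authors' deposited table gives a log2 fold change of 0.12 for Il7r in Tcon.

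The counting error of these values is small beside the replicate spread. Il7r drew between 5527 and 18553 reads per library, which leaves a counting error of 0.734% to 1.35%, whereas the SD between replicates was 15.5% of the mean in venetoclax Treg, 11.6% in vehicle Treg, 13.0% in venetoclax Tcon and 9.48% in vehicle Tcon.

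**Figure D1:**
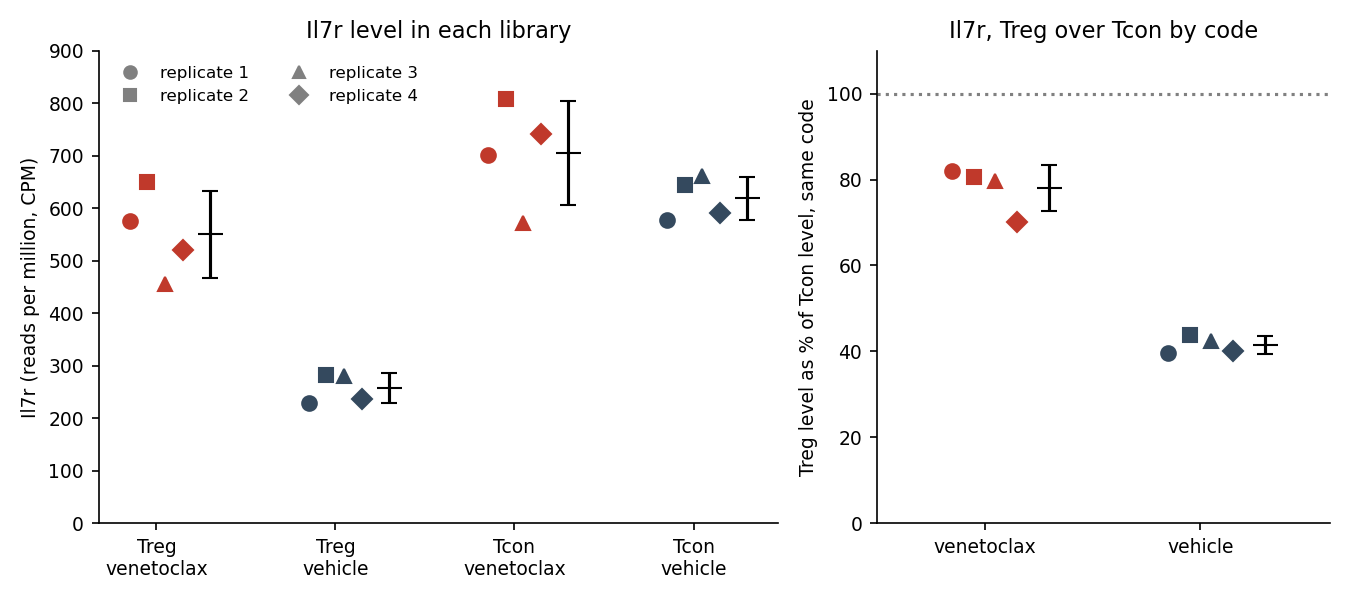
Left, Il7r in CPM in each of the 16 libraries, by group, with the mean and SD (n = 4) beside the points. Right, the CPM of the Treg library as a percentage of the Tcon library of the same code, with mean and SD (n = 4), and a dotted line at 100%. The vehicle Treg libraries sit between 228 and 283 CPM, below all other libraries, and the by-code percentages run from 70.2% to 82.0% for venetoclax and from 39.5% to 43.9% for vehicle.

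On the common CPM scale, Il7r averaged 550.2 ± 82.6 CPM in venetoclax Treg, 257 ± 28.8 in vehicle Treg, 705 ± 99.2 in venetoclax Tcon and 619 ± 41.0 in vehicle Tcon (SD, n = 4 each). In order of level, Tcon came first, venetoclax before vehicle, then venetoclax Treg and vehicle Treg. Neighbours in this order overlapped except at its lower end. The venetoclax Treg libraries (456 to 650.2 CPM) lay within reach of vehicle Tcon (577 to 662 CPM), with 3 of 16 pairs higher in Treg, and of venetoclax Tcon (572 to 807 CPM), with 2 of 16 pairs higher in Treg. The vehicle Treg libraries (228 to 283 CPM) overlapped no other group. Among all genes of its table, Il7r ranked 232 by mean CPM in venetoclax Treg and 725 in vehicle Treg, of 11067 genes. In Tcon it ranked 172 with venetoclax and 201 with vehicle, of 11171 genes.

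Read code by code, the Treg library held 82.0%, 80.5%, 79.7% and 70.2% of the Il7r level of the Tcon library in ABT1 to ABT4. It held 39.5%, 43.9%, 42.5% and 40.1% in VEH1 to VEH4. All 4 venetoclax codes were above all 4 vehicle codes, and all 8 codes were below 100%. The Treg share averaged 78.1 ± 5.34% of Tcon with venetoclax and 41.5 ± 2.04% with vehicle (SD, n = 4 each). ABT3, the lowest venetoclax code in both subsets, had a share close to those of ABT1 and ABT2, and ABT4 had the lowest share of its group.

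The Y-linked reads split the codes unevenly between the treatments, 3 of 4 venetoclax codes against 1 of 4 vehicle codes. Among the codes with Y-linked sums of 1 or less, Il7r in Treg had 12073 normalized counts in venetoclax replicate 4, against 5379 to 6775 in vehicle replicates 1, 3 and 4. Among the codes with Y-linked reads it had 10674 to 15339 in venetoclax replicates 1, 2 and 3, against 6651 in vehicle replicate 2. Adjusted for the summed Y-linked level, the log2 difference of Il7r in Treg was 1.00.

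Ranked by log2 difference among genes that averaged 50 or more normalized counts, Il7r was 25th of 9765 in Treg, where 5% of genes lay above 0.41, and 1629th of 9441 in Tcon. The Treg difference exceeded the Tcon difference by 0.91, which ranked 12th of 9300 genes measured in both subsets.

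Around Il7r, 9 lists of its pathway were followed, with 103 genes of which 97 were measured in each subset. In Treg 31 of the 97 rose and 13 fell at a limma adjusted p under 0.05, which is 45.4%, against 19.6% of all genes tested (2164 of 11067; 10.7% rose and 8.81% fell). In Tcon 15 rose and 9 fell, which is 24.7%, against 6.91% of all genes tested (772 of 11171; 3.92% rose and 2.99% fell). The median log2 difference over the list genes was 0.06 in Treg and 0.03 in Tcon, against 0.0048 and 0.0022 over all genes. The lists were drawn up with results of these libraries known, so these shares describe the genes and are not independent evidence. Without replicate 3 of both treatments 15 of the list genes fell in Tcon, and without the venetoclax codes 1 and 3 the counts were 20 up and 8 down in Treg and 8 up and 0 down in Tcon. Leaving out 1 library at a time moved the Tcon counts most: 8 rose without venetoclax replicate 1, and the number that fell was 2 without venetoclax or vehicle replicate 1, 3 without venetoclax or vehicle replicate 2, 4 and 5 without venetoclax replicates 3 and 4, and 15 without vehicle replicate 3. With the replicate number as a block, which pairs the Tcon libraries, 24 rose and 18 fell in Tcon. Over all 11171 genes that block called 997 higher and 883 lower, so the 6.91% above is not its background. Tcon calls below come from the fit without the block unless the block is named.

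**Figure D2:**
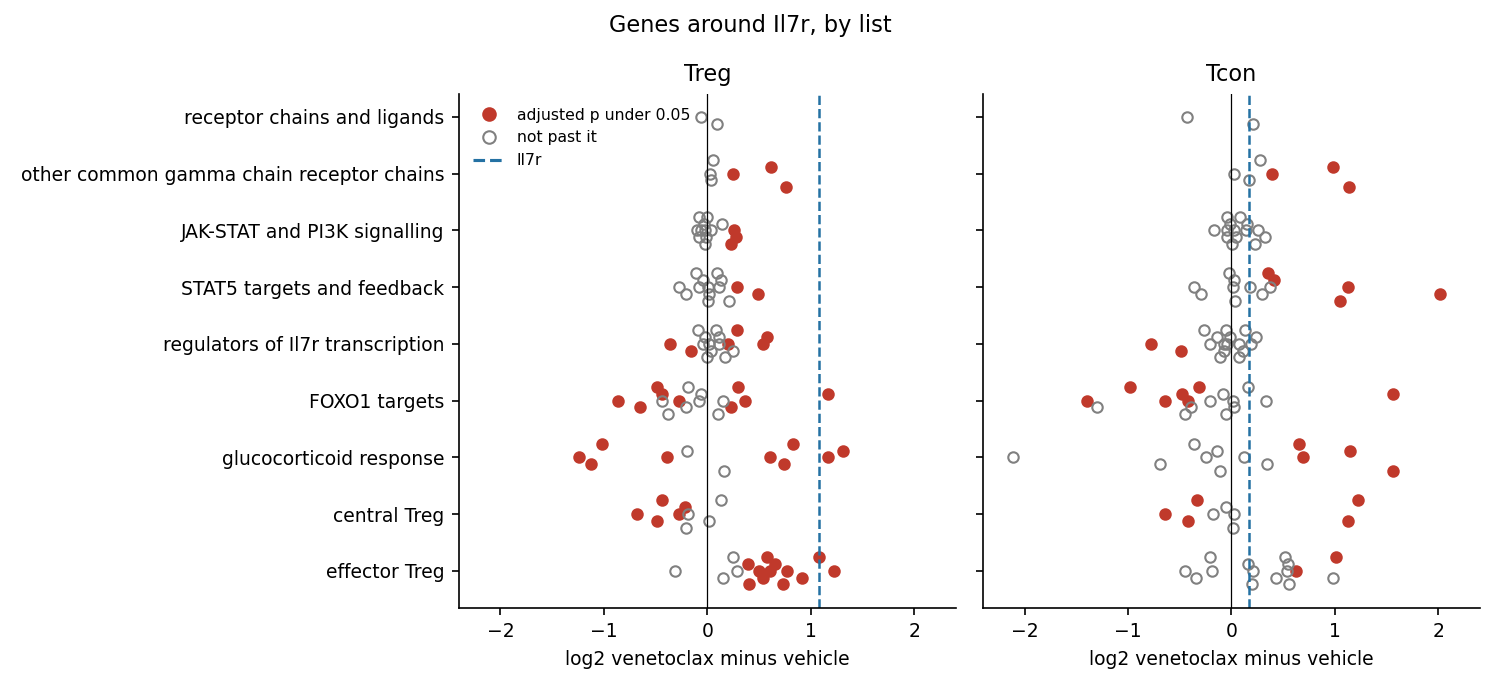
Each point is 1 gene of a list, placed by its log2 difference of venetoclax minus vehicle in Treg (left) and Tcon (right), filled where the limma adjusted p was under 0.05. The dashed line marks Il7r, at 1.08 in Treg and 0.17 in Tcon. In Treg the effector list lies to the right, with 12 of 16 genes filled, and in Tcon Cish lies farthest right, at 2.02.

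The partner chains of Il7r did not pass the test in either subset. Il2rg, the common γ chain (chromosome X, 101264385 to 101268255), averaged 13891 ± 319.6 normalized counts in venetoclax Treg and 13055 ± 343 in vehicle Treg (SD, n = 4 each; log2 0.09, SE 0.05, limma adjusted p = 0.189). In Tcon it averaged 13896 ± 399 with venetoclax and 12062 ± 570.4 with vehicle (SD, n = 4 each; log2 0.21, SE 0.07, limma adjusted p = 0.105). The Tcon groups did not overlap, and Il2rg passed with the replicate number as a block (limma adjusted p = 0.0332) and with DESeq2 (adjusted p = 0.00828). Crlf2, the TSLP receptor chain, had log2 differences of -0.06 in Treg (limma adjusted p = 0.565) and -0.43 in Tcon (limma adjusted p = 0.201). At an unadjusted p under 0.05, neither chain differed in Treg and both did in Tcon. The cytokines Il7 and Tslp are not analysed here.

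Per kilobase of transcript, Il7r stood at 155 CPM in venetoclax Treg, 72.7 in vehicle Treg, 199 in venetoclax Tcon and 175 in vehicle Tcon. Il2rg was higher in each group, at 354, 329, 353 and 305 CPM per kilobase in the same order. Crlf2 was far lower, at 19.4, 20.0, 14.0 and 19.4. Levels per kilobase use the longest protein-coding transcript of each gene and so depend on which transcript the cells use.

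**Figure D3:**
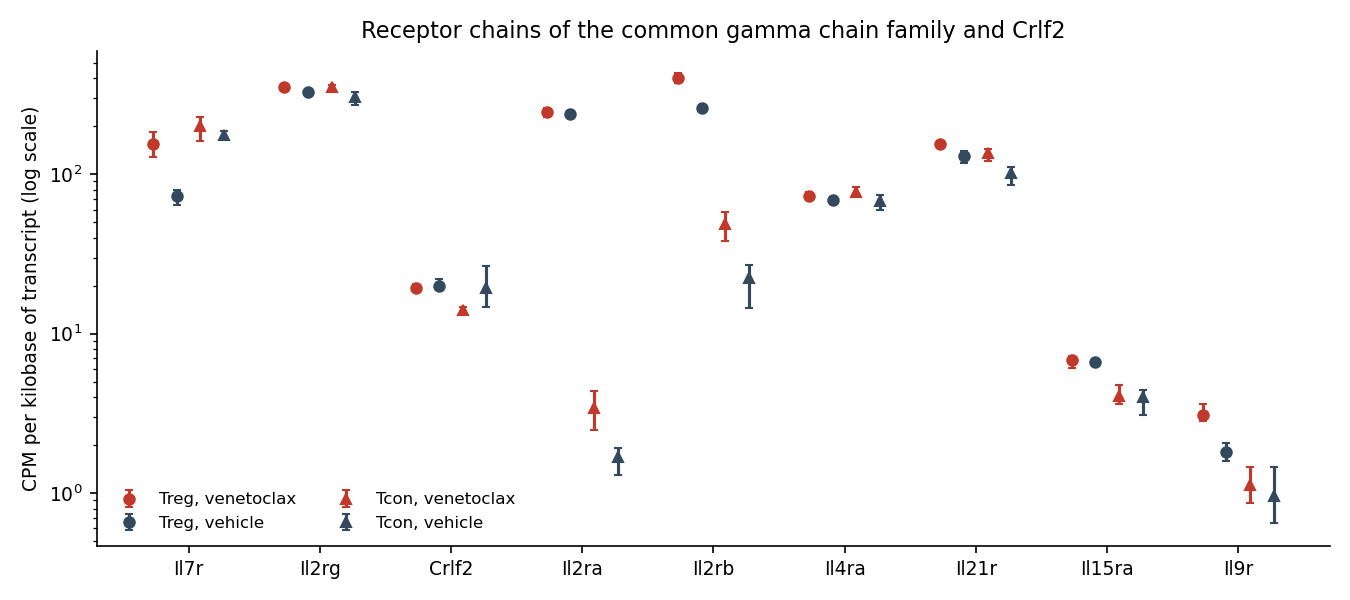
Mean level of 9 receptor chains per kilobase of transcript, on a log scale, in the 4 groups, with bars from the lowest to the highest library (n = 4). Il7r is lower in vehicle Treg than in the other 3 groups, Il2rg lies close together in all 4 groups, and Il2ra and Il2rb are far higher in Treg than in Tcon.

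The other private chains that use the common γ chain were tested next. In Treg 3 of 6 rose and 0 fell (50%, against 19.6% of all genes tested). In Tcon 3 of 6 rose and 0 fell (50%, against 6.91%). The median log2 differences were 0.15 and 0.34. At an unadjusted p under 0.05 none fell in either subset, and by edgeR and DESeq2 0 fell. Il2rb, the β chain shared by the IL-2 and IL-15 receptors, averaged 39490 ± 2766 normalized counts in venetoclax Treg and 25757 ± 757 in vehicle Treg (SD, n = 4 each; log2 0.61, SE 0.06, limma adjusted p = 0.000102). In Tcon Il2rb averaged 4809 ± 793 with venetoclax and 2201 ± 484 with vehicle (SD, n = 4 each; log2 1.14, SE 0.17, limma adjusted p = 0.00344). The Il2rb groups did not overlap in either subset. Il2ra, the IL-2 receptor α chain, rose in Tcon, where it averaged 352 ± 75.0 with venetoclax and 176 ± 24.2 with vehicle (SD, n = 4 each; log2 0.98, SE 0.16, limma adjusted p = 0.00589), and had a log2 difference of 0.02 in Treg (limma adjusted p = 0.81). Il9r, the IL-9 receptor chain, rose in Treg (log2 0.76, limma adjusted p = 0.000815), and Il21r, the IL-21 receptor chain, rose in Treg (log2 0.25, limma adjusted p = 0.00846) and in Tcon (log2 0.39, limma adjusted p = 0.0175). Il4ra and Il15ra passed in neither subset. The Il21r call in Tcon was lost without venetoclax replicate 1 or 2 (limma adjusted p = 0.075 and 0.0642) and with the Y-linked covariate (0.101), and without the venetoclax codes 1 and 3 in both subsets (0.0778 in Treg, 0.132 in Tcon).

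The venetoclax effect on Il2ra differed between the subsets: the Treg effect minus the Tcon effect was -0.96 (SE 0.18, limma adjusted p = 0.0153), in a test that called 1.09% of 10774 genes (0.251% higher and 0.835% lower). That call was lost without venetoclax replicate 1 or 2 (0.0689 and 0.0939) and with the code as a block (0.368). For Il2rb the difference was -0.52 (limma adjusted p = 0.349).

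Of 14 genes for the kinases and factors that carry the IL-7 signal, 3 rose and 0 fell in Treg, and 0 passed in Tcon. The Treg share, 21.4%, is near the 19.6% of all genes tested. The changes in Treg were small. Stat3, a cytokine-activated transcription factor, averaged 8834 ± 465 normalized counts in venetoclax Treg and 7403 ± 265 in vehicle Treg (SD, n = 4 each; log2 0.25, limma adjusted p = 0.00438). Pik3r1, a regulatory subunit of PI3 kinase, had a log2 difference of 0.28 (limma adjusted p = 0.00512). Jak3, the kinase bound to the common γ chain, had 0.23 (limma adjusted p = 0.0462), and the kinase gene Jak1 and the STAT5 genes Stat5a and Stat5b had -0.03, -0.08 and -0.06 in Treg (limma adjusted p = 0.773, 0.39 and 0.455). The Jak3 call was lost with any one of venetoclax replicates 1 to 4 or vehicle replicates 1 and 3 left out (limma adjusted p of 0.0762 to 0.131), with the Y-linked covariate (0.166) and with edgeR (adjusted p = 0.0635), and Pik3r1 had 0.0542 without the venetoclax codes 1 and 3. In Tcon 3 of the 14 were higher and 1 lower at an unadjusted p under 0.05, and edgeR called 0 and DESeq2 1. With the replicate number as a block 2 rose in Tcon, Stat3 (limma adjusted p = 0.00151) and Pik3r1 (0.00692), and 1 fell, Stat5b (0.0452).

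Targets of STAT5 and feedback inhibitors of cytokine signals came next. Of 14 genes 2 rose and 0 fell in Treg, and 5 rose and 0 fell in Tcon, with median log2 differences of 0.011 and 0.24. The share called was 14.3% in Treg, below the 19.6% of all genes tested, and 35.7% in Tcon, against 6.91%. Unadjusted p-values under 0.05 marked 2 genes as lower in Treg and 0 in Tcon, and edgeR and DESeq2 called 0 lower in either. In Tcon 3 rose without vehicle replicate 2 or any one of venetoclax replicates 1, 2 and 3, and in Treg 1 fell without vehicle replicate 1 or 2. Cish, a STAT5-induced inhibitor of cytokine receptors, had 6956, 6911, 7039 and 6721 normalized counts in venetoclax Treg and 5203, 5009, 4503 and 4923 in vehicle Treg. In Tcon it had 1462, 1844, 1462 and 1125 with venetoclax, and 470.1, 409, 232 and 363 with vehicle. Cish therefore stood apart between treatments in every library of both subsets. Its log2 difference was 0.49 in Treg (SE 0.05, limma adjusted p = 0.000102) and 2.02 in Tcon (SE 0.21, limma adjusted p = 0.000625), and the effects differed by -1.52 (limma adjusted p = 0.00443).

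Bcl2, the survival gene whose product venetoclax binds, had 8314, 7659, 8925 and 8607 normalized counts in venetoclax Treg and 8503, 8791, 8298 and 7598 in vehicle Treg, and these groups overlapped (log2 0.013, limma adjusted p = 0.899). In Tcon it had 11625, 12870, 10111 and 9986 with venetoclax and 6862, 5532, 4114 and 4260 with vehicle (log2 1.13, SE 0.16, limma adjusted p = 0.00253). Il7r was thus apart between treatments in Treg and overlapping in Tcon, and Bcl2 the other way round. The Bcl2 effects differed by -1.11 (SE 0.19, limma adjusted p = 0.00705), with 0.051 and 0.052 without venetoclax replicate 1 or 2. Socs2, a further feedback inhibitor, rose in Tcon (log2 1.05, limma adjusted p = 0.00847) and in Treg (log2 0.28, limma adjusted p = 0.023), the Treg call being lost without venetoclax replicate 1 or vehicle replicate 1 or 2 (0.053 to 0.0815) and without the venetoclax codes 1 and 3 (0.192). Socs1 and Socs3 passed in neither subset, and Socs3 passed in Tcon with the replicate block (0.00647).

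Transcription factors reported to act on the Il7r locus moved in both directions in Treg. Of 17 measured, 4 rose and 2 fell in Treg (35.3%, against 19.6% of all genes tested). In Tcon 0 rose and 2 fell (11.8%, against 6.91%). The median log2 differences were 0.087 in Treg and -0.057 in Tcon. In Tcon 0 were higher at an unadjusted p under 0.05, and edgeR and DESeq2 called 0 higher. In Treg 2 rose without venetoclax replicate 1 or vehicle replicate 1 or 3, and 1 fell without any one of venetoclax replicates 2, 3 and 4 and vehicle replicates 1 and 3. Foxo1, the factor that keeps Il7r transcribed (chromosome 3, 52268337 to 52350109), had 9217, 8337, 8183 and 8819 normalized counts in venetoclax Treg and 11764, 11494, 10117 and 11028 in vehicle Treg. The venetoclax values were all below the vehicle values (log2 -0.36, SE 0.06, limma adjusted p = 0.00122). The Foxo1 transcript was thus lower in the Treg libraries in which Il7r was higher. FOXO1 activity was not measured, and its part in the Il7r values was not tested. In Tcon the Foxo1 transcript had 7823, 7672, 6563 and 8670 with venetoclax and 12058, 11853, 8592 and 10848 with vehicle (log2 -0.49, SE 0.12, limma adjusted p = 0.0353). That Tcon call was lost without any one of vehicle replicates 1, 2 and 4 and venetoclax replicates 1, 2 and 3 (0.0749 to 0.105), after adjustment for Y-linked reads (0.135) and without the venetoclax codes 1 and 3 (0.321).

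Among factors reported to repress Il7r, Foxp3 had a log2 difference of 0.11 in Treg (limma adjusted p = 0.202) and 0.07 in Tcon (limma adjusted p = 0.659). Gfi1 averaged 1239 ± 87.7 normalized counts in venetoclax Treg and 1051 ± 179.7 in vehicle Treg (SD, n = 4 each; log2 0.25, limma adjusted p = 0.0952). Prdm1, which encodes BLIMP-1, rose in Treg, to 986 ± 148 with venetoclax against 661 ± 91.3 with vehicle (SD, n = 4 each; log2 0.58, limma adjusted p = 0.00431), and had -0.20 in Tcon (limma adjusted p = 0.422). None of these 3 transcripts fell in Treg, and the part of these factors in the Il7r values was not tested. Gabpa, the ETS factor of the core printed above, had 0.017 in Treg (limma adjusted p = 0.833) and -0.014 in Tcon (limma adjusted p = 0.932). Nr3c1, the glucocorticoid receptor, which raises Il7r in T cells, averaged 5388 ± 439 in venetoclax Treg and 4391 ± 99.9 in vehicle Treg (SD, n = 4 each; log2 0.29, limma adjusted p = 0.00361), and had 0.11 in Tcon (limma adjusted p = 0.422). Myb, a factor of precursor and activated lymphocytes, fell in Tcon (log2 -0.78, limma adjusted p = 0.00973; 0.0512 with the Y-linked covariate and 0.132 without the venetoclax codes 1 and 3).

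Il7r is itself counted among the genes that FOXO1 drives in T cells, and the other 17 on that list split. In Treg 4 rose and 5 fell (52.9%, against 19.6% of all genes tested). In Tcon 1 rose and 6 fell (41.2%, against 6.91%). The median log2 differences were -0.19 and -0.31, on the opposite side of 0 from Il7r. Klf2, a quiescence factor that controls migration, had 3667, 3937, 3458 and 3277 normalized counts in venetoclax Treg and 4507, 6250, 4602 and 4866 in vehicle Treg (log2 -0.49, SE 0.09, limma adjusted p = 0.00295). S1pr1, the receptor for exit from lymph nodes, fell in Treg (log2 -0.43, limma adjusted p = 0.00271), as did Bcl2l11, which encodes the cell death protein BIM (log2 -0.65, limma adjusted p = 0.000224). These 3 genes, and Gadd45a of the same list (log2 -0.86, limma adjusted p = 0.00083), were lower with venetoclax in Treg. Il7r was higher in the same libraries, as were the 4 list genes that rose. Lack of overlap between groups, wherever it is given, is a description, and its share over all genes is not given. Genes that did not pass also showed it, such as Foxp3 in Treg (limma adjusted p = 0.202) and Cd4 in Tcon (limma adjusted p = 0.544). Ddit4, an inhibitor of mTOR signalling, rose in Treg (log2 1.16, limma adjusted p = 0.000423) and in Tcon (log2 1.57, limma adjusted p = 0.00214), and Sesn3, a stress gene that also restrains mTOR, rose in Treg (log2 0.37, limma adjusted p = 0.00198).

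In Tcon Klf2 averaged 4666 ± 662 normalized counts with venetoclax and 7321 ± 1408 with vehicle (SD, n = 4 each; log2 -0.64, limma adjusted p = 0.0228). That call was lost without any one of vehicle replicates 1 and 2 and venetoclax replicates 1, 3 and 4 (0.0567 to 0.0723). Cdkn1b, a cell cycle inhibitor, fell in Tcon (log2 -0.31, limma adjusted p = 0.0129). Of the 17 in Tcon, 1 fell without venetoclax or vehicle replicate 1, 2 fell without venetoclax or vehicle replicate 2, 3 fell without venetoclax replicate 3 or 4, and 8 fell without vehicle replicate 3, and without the venetoclax codes 1 and 3 none did. With the replicate block 2 rose and 8 fell in Tcon, and Sesn3 was among those that rose (log2 0.33, limma adjusted p = 0.00234).

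**Figure D4:**
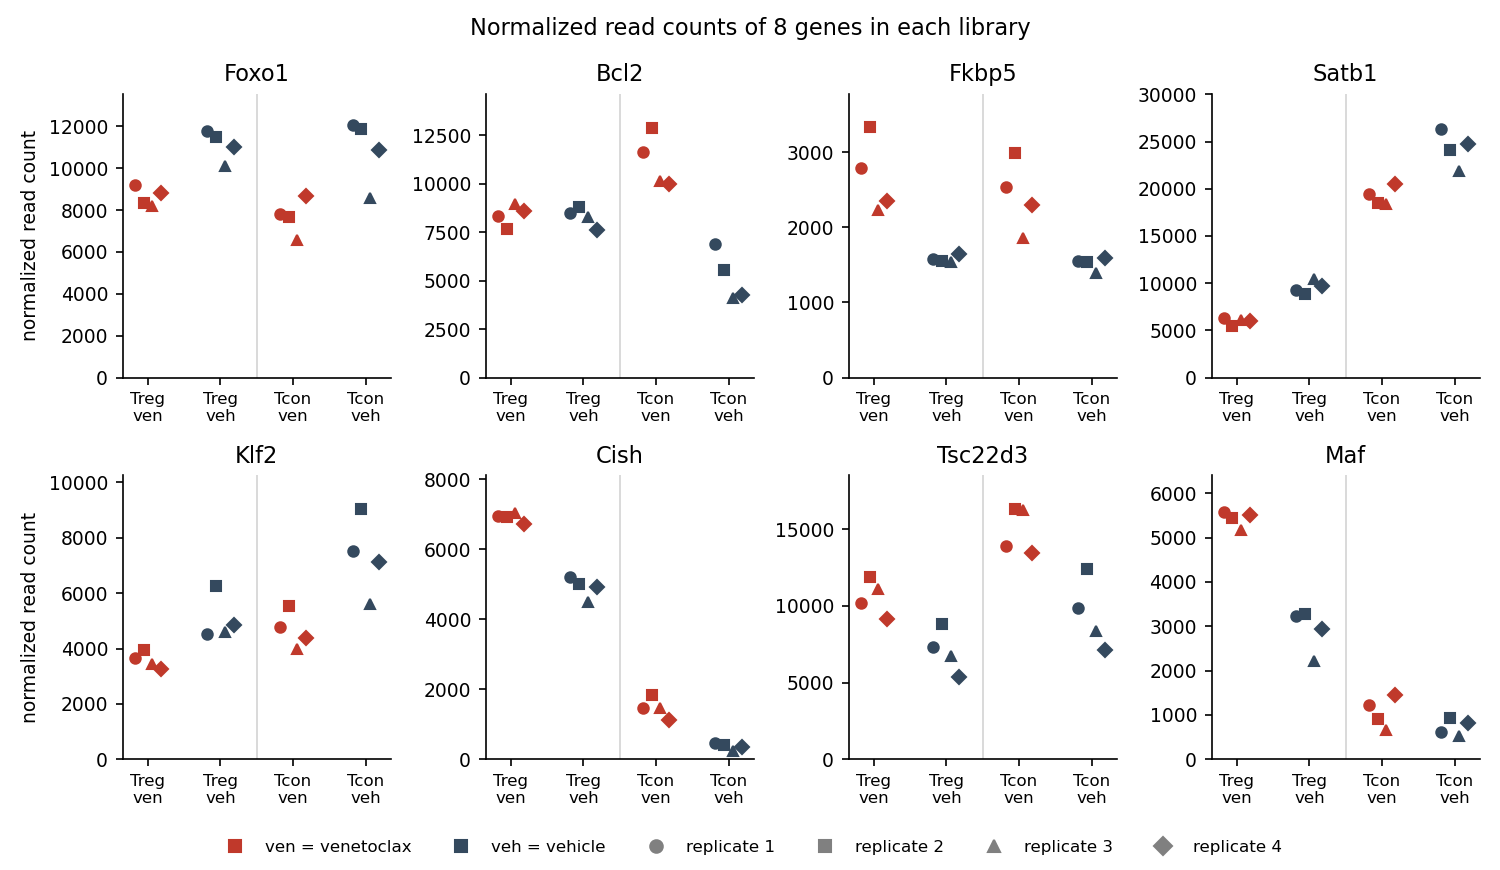
Normalized read counts of 8 genes of the lists in each library, by group and replicate, with each table normalized on its own. In Treg, Foxo1, Klf2 and Satb1 lie lower with venetoclax, and Cish, Fkbp5, Tsc22d3 and Maf higher, without overlap, while the Bcl2 groups overlap. In Tcon Bcl2, Cish and Fkbp5 are among the genes that lie higher with venetoclax without overlap.

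Genes induced by the glucocorticoid receptor, a known activator of Il7r, also went both ways. Of 11 measured in Treg 5 rose and 4 fell (81.8%, against 19.6% of all genes tested). Of 12 measured in Tcon 4 rose and 0 fell (33.3%, against 6.91%). The median log2 differences were 0.16 and 0.0051. Fkbp5, a chaperone partner of that receptor, had 2795, 3339, 2227 and 2346 normalized counts in venetoclax Treg and 1581, 1550.1, 1541 and 1645 in vehicle Treg (log2 0.74, SE 0.10, limma adjusted p = 0.00039). All venetoclax libraries were above all vehicle libraries. Tsc22d3, which encodes the glucocorticoid-induced protein GILZ, rose in Treg (log2 0.60, limma adjusted p = 0.00425), as did Klf9 (log2 0.83, limma adjusted p = 0.000145) and the chemokine receptor gene Cxcr4 (log2 1.31, limma adjusted p = 0.000596). Tsc22d3 had 0.0567 in Treg without the venetoclax codes 1 and 3.

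Members that fell in Treg were the kinase gene Sgk1 (log2 -1.12, limma adjusted p = 0.00156), the mRNA decay gene Zfp36 (log2 -1.02, limma adjusted p = 0.00378), the phosphatase gene Dusp1 and the NF-kB inhibitor gene Nfkbia. Zfp36, Dusp1 and Nfkbia are also early genes of antigen receptor signals and of cell stress. The Dusp1 and Nfkbia calls were lost under several single omissions (Dusp1 0.0502 and 0.0513 without venetoclax replicate 4 or 3, Nfkbia 0.0646 to 0.109 without any one of vehicle replicates 2 and 4 and venetoclax replicates 1, 3 and 4, and 0.0793 with the Y-linked covariate). Without the venetoclax codes 1 and 3 Zfp36 had 0.0533, Dusp1 0.196 and Nfkbia 0.267. Dusp1 and Nfkbia were also lost with DESeq2 (adjusted p = 0.0743 and 0.0883) and with a prior without trend (limma adjusted p = 0.0915 and 0.134). In Tcon Fkbp5 rose (log2 0.65, limma adjusted p = 0.0124), with 0.0537 without venetoclax replicate 1 and 0.0681 with the Y-linked covariate. Tsc22d3 (limma adjusted p = 0.023), Cxcr4 (log2 1.14, limma adjusted p = 0.0364) and Ddit4 rose in Tcon too. The Tsc22d3 and Cxcr4 calls were lost there without venetoclax replicate 1 (0.0623 and 0.0883). The number that rose in Tcon was 1 without venetoclax replicate 1 and 2 without vehicle replicate 1 or venetoclax replicate 2 or 3, and 3 fell without vehicle replicate 3. Of the 12, 3 were lower in Tcon at an unadjusted p under 0.05, where edgeR called 0, DESeq2 3 and the replicate block 3 lower. With the block those were Dusp1 (limma adjusted p = 7.91e-06), Zfp36 (3.07e-05) and Sgk1 (0.00239), so their fall was not particular to Treg.

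Genes of central and effector Tregs place Il7r beside the known states of these cells, since CD127 is a marker of resting and memory-like cells. Of 9 central genes 0 rose and 5 fell in Treg (55.6%, against 19.6% of all genes tested). None was higher at an unadjusted p under 0.05, and edgeR and DESeq2 called 0 higher. Satb1, a chromatin organizer of resting T cells, had 6339, 5453, 6069 and 5992 normalized counts in venetoclax Treg and 9253, 8817, 10403 and 9665 in vehicle Treg (log2 -0.68, SE 0.06, limma adjusted p = 7.15e-05). Lef1, a transcription factor of naive T cells, fell too (log2 -0.21, limma adjusted p = 0.0226), a call that was lost without venetoclax replicate 2 or vehicle replicate 1 or 3 (0.065 to 0.0713), with the Y-linked covariate (0.0913) and without the venetoclax codes 1 and 3 (0.0776). Of the 9, 3 fell without venetoclax replicate 2 or vehicle replicate 1 or 3. Il7r was thus higher in the Treg libraries in which these resting-cell genes were lower. The fall was not particular to Treg. Satb1 (limma adjusted p = 0.0427), S1pr1 (0.0164) and Klf2 were also called lower in Tcon, where the Il7r groups overlapped. Without venetoclax replicate 1 the Tcon calls of Satb1 and S1pr1 were lost (0.128 and 0.0695).

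Of 16 effector genes 12 rose and 0 fell in Treg (75%, against 19.6% of all genes tested), with a median log2 difference of 0.56. None of them was lower at an unadjusted p under 0.05 or by edgeR or DESeq2. Maf, a factor of differentiated Tregs, had 5571, 5431, 5170.2 and 5499 normalized counts in venetoclax Treg and 3222, 3285, 2210.1 and 2931 in vehicle Treg (log2 0.91, SE 0.10, limma adjusted p = 0.000119). Il1rl1, the IL-33 receptor of tissue Tregs, averaged 927 ± 228 with venetoclax and 394 ± 88.4 with vehicle (SD, n = 4 each; log2 1.23, limma adjusted p = 0.000518). Klrg1, a marker of short-lived effector Tregs, averaged 1181 ± 222 with venetoclax and 565 ± 148 with vehicle (SD, n = 4 each; log2 1.08, limma adjusted p = 0.000815). Their log2 differences are close in size to that of Il7r. The integrin gene Itgae (log2 0.73, limma adjusted p = 0.000337), the costimulatory receptor gene Icos (0.50, limma adjusted p = 0.00036) and the factor gene Irf4 (0.61, limma adjusted p = 0.000313) rose too.

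In Tcon 2 of 15 effector genes rose and 0 fell (13.3%, against 6.91% of all genes tested). The 2 were Tnfrsf4 (log2 0.62, limma adjusted p = 0.0252) and Ccr8 (log2 1.01, limma adjusted p = 0.00794). At an unadjusted p under 0.05, 5 were higher and 1 lower, and edgeR and DESeq2 called 0 lower. The Tnfrsf4 call was lost without venetoclax replicate 1 or 3 or vehicle replicate 1 (0.0645 to 0.0896) and with the Y-linked covariate (0.129), without the venetoclax codes 1 and 3 neither passed (0.304 for Tnfrsf4, 0.158 for Ccr8), and with the replicate block 5 rose and 1 fell. Among 9 central genes in Tcon 2 rose and 3 fell (55.6%, against 6.91% of all genes tested). None fell without venetoclax or vehicle replicate 1, and 1 fell without vehicle replicate 2 or any one of venetoclax replicates 2, 3 and 4. Igfbp4, a naive T cell gene, rose in Tcon (log2 1.23, limma adjusted p = 0.000943) and had 0.13 in Treg (limma adjusted p = 0.194), and its effects differed between the subsets by -1.09 (limma adjusted p = 0.00307).

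Markers of other cells that carry or feed the IL-7 receptor were read beside these values. Innate lymphoid cells carry much CD127. Of their markers, Il23r, a receptor chain for IL-23, ran from 1.70 to 2.42 CPM in venetoclax Treg and from 0.283 to 1.15 CPM in vehicle Treg. It rose in Treg (log2 1.63, limma adjusted p = 0.00779; 0.0806 without the venetoclax codes 1 and 3). In Tcon it ran from 0.126 to 0.554 CPM with venetoclax and from 0.261 to 0.341 CPM with vehicle. Kit, the stem cell factor receptor, averaged 2.30 ± 0.555 CPM in venetoclax Treg and 2.38 ± 0.389 CPM in vehicle Treg (SD, n = 4 each), and the groups overlapped (log2 -0.09, limma adjusted p = 0.8). The other markers of these cells are not reported here, and the part of such cells in the Il7r values was not tested. Stromal markers, 3 of 7 measured in Treg, ran from 169 to 191 CPM in venetoclax Treg and from 207 to 251 CPM in vehicle Treg, carried by Pecam1, which T cells also express (log2 -0.44, limma adjusted p = 0.000717). For myeloid and dendritic cells 5 of 8 markers were measured in Treg, with sums of 87.8 to 109.8 CPM with venetoclax and 66.0 to 86.6 CPM with vehicle. The gap was carried by Cd74, which averaged 66.5 and 46.4 CPM (log2 0.53, limma adjusted p = 0.0101; 0.0598 without the venetoclax codes 1 and 3). In the same order Cst3 averaged 29.0 and 29.3 CPM, Lyz2 1.63 and 1.68, H2-Aa 1.32 and 0.922, and Csf1r 0.541 and 0.293.

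On chromosome 15 the 4 nearest measured genes on each side of Il7r were Capsl, Lmbrd2, Skp2 and Nadk2 at lower coordinates and Spef2, Prlr, Dnajc21 and Brix1 at higher coordinates. The nearest, Capsl, lies 40.1 kb away and had a log2 difference of 0.46 in Treg (limma adjusted p = 0.123), and Spef2, 48.3 kb away, had 0.24 (limma adjusted p = 0.389). Of the 8 neighbours 1 passed in Treg and 0 in Tcon, where 19.6% and 6.91% of all genes tested passed. So small a count is no result about the locus. The neighbour that passed was Skp2, 350.7 kb away, a ubiquitin ligase subunit of the cell cycle. It averaged 179 normalized counts in venetoclax Treg and 92.6 in vehicle Treg (log2 0.93, SE 0.13, limma adjusted p = 0.000604). In Tcon Skp2 had 0.72 (limma adjusted p = 0.0513, and 0.0141 with the replicate block).

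Genes whose profile over the 16 libraries was most like that of Il7r were named by the root-mean-square difference of centred log2 CPM, among 9141 candidates. They were Pik3ip1 (0.294), Pde7a (0.310), Zc3h8 (0.316), Pgap1 (0.336), Pknox1 (0.348) and Samd3 (0.352). A profile with no variation would stand at 0.586, and the median candidate stood at 0.621, so even the nearest genes followed Il7r only in part. Pik3ip1, a negative regulator of PI3 kinase and itself on the FOXO1 list, averaged 118 ± 17.0 CPM in venetoclax Treg, 94.4 ± 10.3 in vehicle Treg, 194 ± 18.4 in venetoclax Tcon and 173 ± 21.5 in vehicle Tcon (SD, n = 4 each), the same order of groups within each subset as Il7r. The genes nearest to the mirrored profile were Usp18 (0.259), Mmp11 (0.291), Armcx6 (0.313) and Vangl2 (0.322). Usp18, an interferon-induced protease, averaged 27.7 ± 1.26 CPM in venetoclax Treg, 41.8 ± 3.30 in vehicle Treg, 20.4 ± 2.18 in venetoclax Tcon and 24.5 ± 3.99 in vehicle Tcon (SD, n = 4 each). All of these values come from the same libraries as those of Il7r, and the difference between the subsets enters each profile. By Pearson correlation in place of the root-mean-square difference 1 of the 6 like genes was named again.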

How the data were processed

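Per the labels' protocols, RNA of the sorted cells was read on a NovaSeq. The submitters' processing notes name HISAT2, SAMtools and the build mm10. No source used here gives the read counter, its strand setting or the gene filter. The deposited library columns hold a normalized signal: the authors scaled the read counts of each library by 1 size factor. This is read from the values, which are whole multiples of 1 unit per library (100% of them, tolerance 0.01), and whole reads were recovered this way. The authors' mean of this signal, their deposited log2 fold changes and their deposited p-value columns were read too. From these only the log2 fold change of Il7r is printed. The columns left unused numbered 0.

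The members, lists and tests were chosen with earlier results of these data known. Each subset was fitted alone with limma 3.58.1 (R 4.3.3; empirical Bayes, mean-dependent prior, two-sided) on log2(normalized count + 1), 4 venetoclax against 4 vehicle libraries, with Benjamini-Hochberg adjustment over the whole table and a threshold of 0.05. Fold changes on this scale understate those of low genes. The subset difference was the interaction over 16 libraries after centring each library on its median. The script was tested on simulated data. Alternatives were other pseudocounts (0.5 and 10), a mean of at least 10, a prior without trend, CPM, TMM and upper quartile scaling, edgeR 4.0.16 and DESeq2 1.42.0 on recovered reads, single omissions, a Y-linked covariate and a replicate block. Named genes are up to 4 per list with the smallest p in either subset, fixed members of the IL-7 pathway, the 4 nearest neighbours per side, and the 6 like and 4 mirrored genes. Some genes that enter the counts over lists are not reported here by name. Replicate counts differed by more than sampling noise in every pair.

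Same-numbered venetoclax and vehicle libraries deviated together in Tcon (correlations 0.119 to 0.614, all over 0.1), which counts as paired, and not in all pairs of Treg (-0.0395 to 0.414). This split rests on replicate 1, at -0.0395 in Treg and 0.119 in Tcon. In both subsets replicates 2, 3 and 4 matched their own number best, and replicate 1 matched number 2. Treg and Tcon libraries of a code deviated together (0.461 to 0.766). The pairing comes from the data and the shared numbers, and a shared animal is not stated.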

Additional observations from a re-analysis of the deposited data

Results flagged for a closer look

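A library stood far from the other 3 of its group for 15 of 354 groups checked, and chance alone flags about 1 group in 20. The values are normalized counts. None of them was Il7r, whose 4 groups held no such library. In Treg these were Il9r (374 in venetoclax replicate 4, the others 303 to 312), Tnfrsf9 (6999.6 in venetoclax replicate 4, the others 5540 to 5771), Sgk1 (494 in venetoclax replicate 2, the others 300 to 315), Gadd45a (479 in vehicle replicate 4, the others 332 to 354), Igfbp4 (2286 in vehicle replicate 4, the others 2753 to 2809), Cxcr4 (4549 in vehicle replicate 2, the others 2155 to 2469), Tnfrsf4 (4597 in vehicle replicate 2, the others 5897 to 6038), Usp18 (868 in vehicle replicate 2, the others 1020 to 1049) and Pgap1 (498 in vehicle replicate 1, the others 621 to 629).

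In Tcon vehicle replicate 3 stood apart for Stat5a (1995, the others 2240 to 2271), Zfp36 (5689, the others 11110 to 11509) and Nadk2 (636, the others 554 to 568). Venetoclax replicate 3 did so for Prdm1 (176, the others 248 to 258), and venetoclax replicate 2 for Pik3ip1 (5184, the others 4310 to 4434) and Zc3h8 (430, the others 341 to 354).

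The effect of venetoclax differed between Treg and Tcon for 6 named genes in the limma interaction test over 16 libraries, fitted without the code as a block. The Treg effect minus the Tcon effect was -0.96 for Il2ra (adjusted p = 0.0153), -1.52 for Cish (0.00443), -1.11 for Bcl2 (0.00705), -1.09 for Igfbp4 (0.00307), 0.42 for Cdkn1b (0.0415) and 0.75 for Tnfrsf9 (0.0207). For Cish and Igfbp4 the call held in every single omission. The Cdkn1b call was lost in 6 of them (adjusted p of 0.0624 to 0.174), and Tnfrsf9 was lost without vehicle replicate 1 or 2 or venetoclax replicate 1 (0.0628 to 0.101) and with the code as a block (0.138). With that block Il2ra was lost too (0.368), Cish, Bcl2, Igfbp4 and Cdkn1b passed (0.0279, 0.0337, 0.0279 and 0.0354), and the factor genes Prdm1 (0.78, limma adjusted p = 0.0279, against 0.0744 without the block) and Tbx21 (0.46, 0.0403 against 0.688) passed as well. Il7r's own difference between subsets, 0.91, is given without a test.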

How the results depend on the processing

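Il7r kept its sign under every alternative run: log2 0.99 to 1.16 in Treg and 0.10 to 0.26 in Tcon over single omissions, and 1.00 to 1.22 and 0.16 to 0.32 over the others. By code, Treg minus Tcon was -0.38 to -0.31 (venetoclax) and -1.30 to -1.25 (vehicle) over omissions. With scaling over all 16 libraries it was larger in both treatments. For vehicle it was -1.35 with TMM and -1.34 with median of ratios, and for venetoclax -0.42 with either, against -0.36 in CPM. Of the list genes, 26 to 31 rose and 9 to 13 fell in Treg over single omissions, 20 rose and 8 fell without the venetoclax codes 1 and 3, and 8 fell with a prior without trend. In Tcon 8 to 15 rose and 2 to 15 fell over single omissions (8 rose without venetoclax replicate 1, and 15 fell without vehicle replicate 3). In Tcon 8 rose and 2 fell with the Y-linked covariate, and 8 rose and 0 fell without the venetoclax codes 1 and 3. The replicate block gave 24 higher and 18 lower in Tcon. In Tcon 14 fell with DESeq2, 5 with a prior without trend and 15 without replicate 3 of both treatments. For the subset difference 0 to 2 were higher and 2 to 4 lower over omissions. The cause was not tested, beyond fewer libraries in the omissions. Of the 6 like genes 4 to 5 were named again over omissions and 1 by Pearson correlation. Upper quartile scaling turned the split of all called Treg genes to 969 higher and 1348 lower, from 1189 and 975, and without the venetoclax codes 1 and 3 it was 91 and 25 in Tcon, from 438 and 334. In Treg, where not all same-numbered libraries deviated together, the replicate block called 1368 higher and 1099 lower genes. In Tcon it called 997 higher and 883 lower. Single omissions ended 12 of 53 called named genes in Treg and 15 of 26 in Tcon. Depth, at least 21335006 reads in each library, limits only the lowest genes.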
